A study of Mus musculus with 11 samples.

Results

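The comparison set 4 arrays of NSC34 cells with a short hairpin RNA against Tardbp (shTardbp 1 to 4) beside 3 arrays of NSC34 cells whose control hairpin targets Renilla luciferase (shLuciferase 1, 2 and 4). These are 7 of the 11 arrays of the series. The other 4 arrays carried a hairpin against GFP (shGFP 1, 2, 3 and 5) and served to find which changes were particular to the luciferase control. The comparison was followed over 15803 genes, every gene of the series for which at least 1 probe set was annotated with that symbol alone. A gene's value was the mean log2 signal of those probe sets, and all changes below are differences of such means (shTardbp minus shLuciferase unless stated). NSC34 is a mouse line made by fusing neuroblastoma cells with spinal cord cells, used as a stand-in for motor neurons. In all 3 groups the hairpin was delivered in the pSUPERIOR vector by lipofection, and stable clones were taken under puromycin. The labels do not say how many clones stand behind a group or whether its arrays are separate cultures. The p-values therefore rest on the spread between these arrays alone, which may be technical.

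Tardbp encodes TDP-43, an RNA-binding protein of the nucleus that binds UG-rich stretches of transcripts, acts on their splicing and stability, and lowers its own transcript when it is abundant. In amyotrophic lateral sclerosis (ALS) it leaves the nucleus of motor neurons and forms aggregates in the cytoplasm. The question behind the series is how transcripts of a motor-neuron-like cell respond when it is depleted. The labels name 1 Tardbp target for the hairpin, 25 bases long and 56.0% G or C, shown because the knockdown rests on it.
Tardbp hairpin target: tctaagcaaagccccagacgagcct

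Tardbp itself was at 8.82, 8.80, 8.997 and 8.91 in shTardbp 1 to 4 and at 9.29, 9.38 and 9.20 in shLuciferase 1, 2 and 4. All 4 shTardbp arrays lay below all 3 luciferase arrays. This is a change of -0.41 (SE 0.0877, adjusted p = 0.00327 in limma) and leaves 75.4% of the luciferase signal (95% confidence interval 66.2 to 85.9). All 10 Tardbp probe sets were lower, by differences between -0.605 and -0.102, and 5 of them without overlap of the groups. The size depends on how they are combined. With the median of the probe sets in place of their mean the change was -0.61 (SE 0.142, adjusted p = 0.00792 in limma). With 35 splits of 7 arrays the exact permutation test, in the two-sided form used here, cannot pass 0.05. Its p was the smallest that this form allows (0.0571), with 1 split counted at each end. A single array of the controls shared its code letter with the knockdown. The codes of all 4 shTardbp arrays and of shLuciferase 4 open with P and those of the other 6 arrays with C; the labels leave the letters unexplained. When the letter entered the fit as a block, its effect rested on the 3 luciferase arrays, the only group with both letters. The change against shLuciferase was then the shTardbp mean minus shLuciferase 4 alone. For Tardbp this was -0.32, and its call was lost. Results below with the letter as a block rest on that single control array in the same way. They do not separate the letter from that array.

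Array medians ran from 6.83 to 6.92. On the third principal component of the gene values (9.18% of the variance) shLuciferase 4 stood at 17.0 and shLuciferase 1 and 2 at -7.61 and -9.43. The median standard deviation over genes was 0.113 among the luciferase arrays and 0.0571 without shLuciferase 4, beside 0.104 in shTardbp and 0.109 in shGFP. A value under 4.46, the lowest 25th percentile of probe set values on any array, is not shown to be above background. None of 8 neuronal markers lay below it in shLuciferase. Of 7 motor neuron markers 3 lay below it in shLuciferase and in shTardbp. In shLuciferase these were Chat at 4.17, Slc5a7 at 4.07 and Mnx1 at 4.11, the genes of acetylcholine synthesis, of choline uptake and of a motor neuron homeodomain factor, while Slc18a3, the vesicular acetylcholine transporter, was at 9.63.

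Against shLuciferase 4120 of 15803 genes passed the threshold (26.1%; Benjamini-Hochberg adjusted p below 0.05 in limma), 1861 higher (11.8%) and 2259 lower (14.3%) in shTardbp. Most of these changes were moderate, with a median absolute log2 change of 0.437. At least 2-fold changes numbered 100 higher (0.633%) and 121 lower (0.766%). The arrays of the groups did not overlap in 5060 genes (32.0%), 2386 higher and 2674 lower, and 3904 of those genes also passed. Among called genes, 3986 (96.7%) had all 4 shTardbp arrays on the called side of shLuciferase 4, the control with their own code letter. The calls were made with shLuciferase 4 among the controls, so this share follows in large part from the calling. With the letter as a block 2472 of the 4120 passed the same way, and without shLuciferase 4 it was 3446. Genes above the median level were called more often (40.3%) than those below it (11.8%). In these bulk cultures, fewer cells that express a gene and less of its RNA per cell cannot be told apart.

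The genes that rose most were led by Sulf2, a sulfatase that trims heparan sulfate at the cell surface. Sulf2 was at 8.76, 8.67, 8.63 and 8.64 in shTardbp 1 to 4 and at 6.10, 6.17 and 6.29 in shLuciferase 1, 2 and 4, a 5.61-fold rise (log2 2.49, SE 0.0744, adjusted p = 3.65e-10). The shGFP arrays lay between, at 7.21 to 7.43, so the rise against shGFP was 1.38. The same order was seen for Pld4, a nuclease of the endolysosome. Pld4 was at 7.75, 8.17, 7.76 and 7.80 in shTardbp, at 5.72, 5.57 and 5.75 in shLuciferase and at 6.60 to 7.09 in shGFP (log2 2.19, SE 0.122, against 1.05 for shGFP). Cd74, the invariant chain that accompanies MHC class II, stood at 9.13, 9.41, 9.17 and 9.08 in shTardbp and at 7.02, 7.07 and 7.10 in shLuciferase. Its rise was 2.13 against shLuciferase (SE 0.0905) and 1.70 against shGFP. Bambi, a decoy receptor that damps TGF-beta and BMP signals, was at 8.61, 8.99, 8.51 and 8.62 against 6.63, 6.56 and 6.91 (log2 1.98, SE 0.132), and its rise was larger against shGFP (2.43). Kcnn3, a calcium-activated potassium channel, rose to 9.25 to 9.67 from 7.52 to 7.70 (log2 1.89, SE 0.111), with the shGFP arrays at 7.53 to 7.97. For Kcnn3 the difference between the control groups did not pass (0.20, adjusted p = 0.315).

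Further large rises were those of the G protein subunit Gnb3 (log2 2.05, SE 0.102) and the kinase gene Dyrk4 (1.94, SE 0.0727), at 6.55 to 6.81 in shTardbp, 4.67 to 4.78 in shLuciferase and 5.45 to 5.51 in shGFP. The H2B histone genes Hist1h2bp (now H2bc22; 2.23, SE 0.262) and Hist3h2ba (now H2bu2; 2.23, SE 0.154) rose too. Each rests on 1 probe set, and H2B genes have near-identical copies, so these values are uncertain. Hist1h2bp was also at 4.06 to 4.41 in shLuciferase, where it is not shown to be above background. The tenth of these genes, Nxph4, is taken up below with the changes that depend on the control.

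Epha7, a receptor for ephrins in axon guidance, had the largest fall among all genes named by this rule. It was at 4.07, 3.89, 3.93 and 3.87 in shTardbp 1 to 4, at 7.53, 7.68 and 8.07 in shLuciferase and at 7.35 to 7.85 in shGFP. The change was -3.82 (SE 0.133, adjusted p = 9.09e-10), with all 21 probe sets lower. Both control groups expressed Epha7 clearly, and in shTardbp it was not shown to be above background, so the exact size of the fall is not known. The same holds for Gpx8, a peroxidase of the endoplasmic reticulum (4.35 to 4.48 against 6.63 to 6.84; -2.31, SE 0.108), and for the membrane metalloproteinase Mmp16 (3.93 to 4.08 against 6.11 to 6.23; -2.15, SE 0.0808). It holds as well for Abcd2, a fatty acid transporter of the peroxisome (3.76 to 4.20 against 5.72 to 6.18; -1.97, SE 0.129). Fam19a1 (now Tafa1), a secreted neuronal protein, was at 4.85, 4.99, 4.72 and 4.79 in shTardbp and at 7.26, 7.40 and 7.73 in shLuciferase (-2.63, SE 0.114). Lrrc17 was at 4.70 to 4.88 against 6.89 to 7.01 (-2.13, SE 0.0848). For Epha7, Fam19a1, Gpx8, Mmp16 and Lrrc17 the difference between the control groups did not pass.

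Other large falls were graded over the groups. Lhx9, a LIM homeodomain factor, was at 5.68 to 5.79 in shTardbp, 6.83 to 7.12 in shGFP and 7.89 to 8.01 in shLuciferase, so its fall was -2.21 (SE 0.0769) against shLuciferase and -1.28 against shGFP. The orphan nuclear receptor gene Nr4a3 was at 5.56 to 5.91, 6.23 to 6.44 and 7.55 to 7.84 in the same order (-1.98, SE 0.0969, and -0.63). Mfsd2 (now Mfsd2a), a transporter of lysophospholipids, was at 6.75 to 6.999, 7.82 to 8.09 and 8.74 to 8.83 (-1.91, SE 0.0851, and -1.10). For these 3 genes the control groups themselves differed (shGFP minus shLuciferase -0.94, -1.35 and -0.81, adjusted p at most 3.97e-05).

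**Figure D1:**
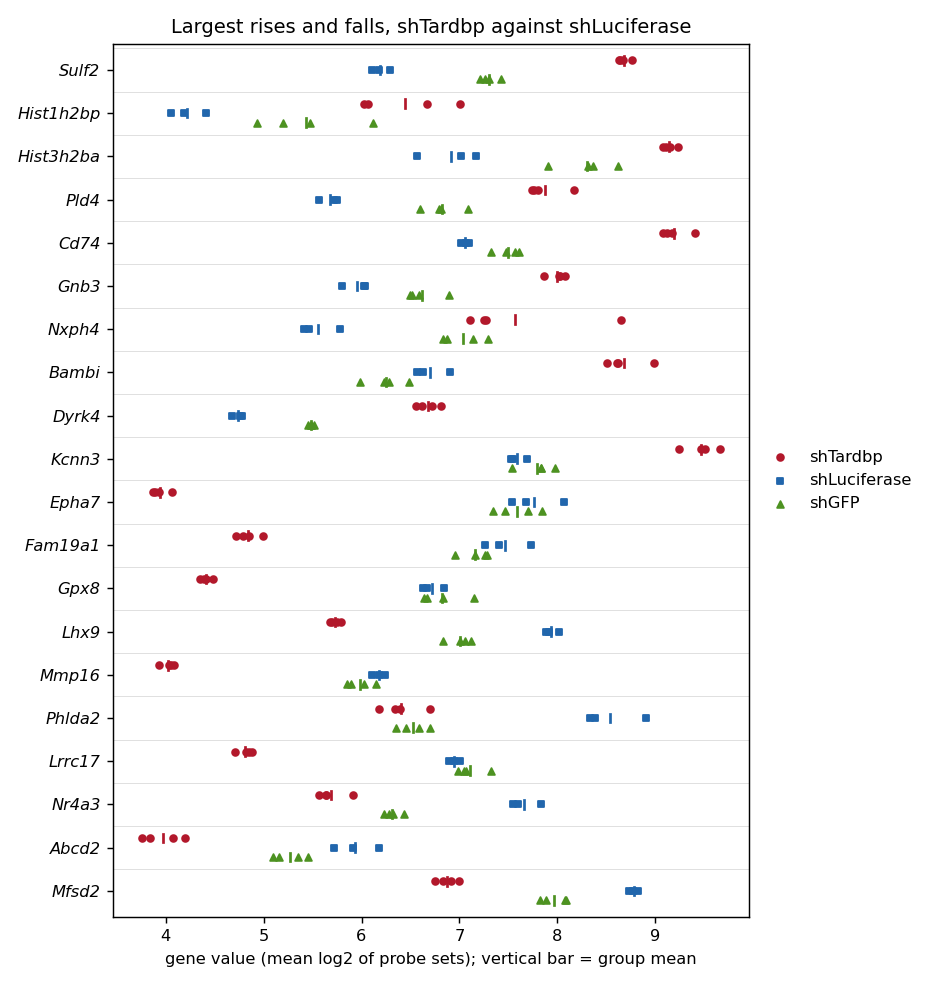
Gene values (mean log2 signal of the probe sets) of the 10 largest rises and 10 largest falls of shTardbp against shLuciferase, 1 point per array with a vertical bar at each group's mean. The shGFP arrays sit beside shLuciferase for Epha7, Gpx8, Lrrc17 and Kcnn3, between the groups for Sulf2, Pld4, Lhx9 and Mfsd2, and beside shTardbp for Phlda2.

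Gene lists were read against the share of all genes called, 11.8% higher and 14.3% lower. The clearest shift was that of the cell cycle. Of 54 such genes 47 fell and 1, Ccnd1, rose (0.18), and the median change was -0.58, where the median over all genes was 0.00363. Melk, a mitotic kinase, was at 7.15, 7.30, 7.23 and 7.45 in shTardbp, 8.63, 8.68 and 8.38 in shLuciferase and 8.20 to 8.53 in shGFP (-1.28, SE 0.103, adjusted p = 1.47e-06). Cdc20, an activator of the anaphase-promoting complex, was at 7.72 to 8.03 against 8.91 to 9.18 in shLuciferase (-1.18, SE 0.107). Mybl2 and E2f8, transcription factors of the cycle, fell by 1.12 (SE 0.101) and 0.96 (SE 0.0666) on the log2 scale. Of the 48 called members 44 were called the same way against shGFP, none was particular to the luciferase control, and between the controls 1 member was higher and 2 lower in shGFP. With the letter as a block 40 members were lower.

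DNA replication genes moved the same way. Of 42 measured 33 were lower and none higher (median -0.48), and 32 of the 33 were lower against shGFP too. Mcm10, which starts replication at origins, was at 8.65, 8.62, 8.47 and 8.53 in shTardbp and at 9.67, 9.73 and 9.65 in shLuciferase (-1.12, SE 0.0667, adjusted p = 9.5e-08), with shGFP at 9.56 to 9.61. Tyms, thymidylate synthase, was at 8.02 to 8.25 against 8.98 to 9.17 (-0.93, SE 0.0752). Cdc45l (now Cdc45), a part of the replicative helicase, fell by 0.73 (SE 0.0684). No replication gene was particular to the luciferase control, and between the controls 2 were lower in shGFP. With the letter as a block 23 were lower, and 15 of the list were called against both controls.

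The promoters of the lower cell cycle genes are shown because these genes moved together. RefSeq promoters (GRCm38.p6, 250 bases before to 50 after the start) were found for 40 of the 47 lower genes, 44 promoters in all. The letters TTTGAA of the CHR element, at which late cell cycle genes are known to be repressed in resting cells, stood on either strand in 26 of them (59.1%), beside 17.9% of all 32851 promoters. The letters CCAAT stood on either strand in 72.7%, beside 37.4%. The E2F letters, TTTCGCGC or TTTGGCGC, stood in 6.82%, beside 0.813%. Matches of different motifs were counted apart. So were overlapping promoters of the same gene, as for Prc1 and Ect2, which can hold the same match. A match is a description and not a binding site, and no test was made. The shares among list members that were not lower were not counted, so these shares describe genes of the list and not their fall. The 150 bases before the start are printed 5′ to 3′ on the strand of the gene for E2f8 (chr7:48881597-48881746, minus strand), Cdc2a, now Cdk1 (chr10:69352913-69353062, minus strand), and Top2a (chr11:99024190-99024339, minus strand). Capitals mark TTTGAA and CCAAT on either strand, the reverse strand reading TTCAAA and ATTGG. The promoters shown are examples that hold both motifs in these bases. Those of Melk, Mybl2 and Birc5 hold neither in theirs, and those of Plk1 and Bub1 hold CCAAT alone.
E2f8: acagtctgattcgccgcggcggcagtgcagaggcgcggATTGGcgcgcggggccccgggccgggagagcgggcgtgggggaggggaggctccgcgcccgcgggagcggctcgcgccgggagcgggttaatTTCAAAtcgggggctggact
Cdk1: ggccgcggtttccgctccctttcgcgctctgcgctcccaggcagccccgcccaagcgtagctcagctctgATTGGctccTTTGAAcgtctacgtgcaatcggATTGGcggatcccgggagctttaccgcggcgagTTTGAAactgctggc
Top2a: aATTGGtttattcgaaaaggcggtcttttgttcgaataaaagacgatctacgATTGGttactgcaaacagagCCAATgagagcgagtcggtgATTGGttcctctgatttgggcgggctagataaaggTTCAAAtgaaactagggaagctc
Cdc2a, the kinase that drives entry into mitosis, was at 9.94 to 10.05 in shTardbp, at 10.49, 10.68 and 10.73 in shLuciferase and at 10.47 to 10.57 in shGFP (-0.64, SE 0.0712). Top2a, topoisomerase II, was at 10.82 to 10.95 in shTardbp, 11.38 to 11.41 in shLuciferase and 11.24 to 11.50 in shGFP (-0.50, SE 0.0719).

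Genes of the splicing machinery leaned downward. Of 43 core spliceosome genes 18 were lower and 1 higher (median -0.18), 13 called the same way against shGFP and 1 particular to the luciferase control. With the letter as a block 12 were lower, 3 members were called against both controls and 3 were particular. Prpf31, a protein of the tri-snRNP, was at 7.79, 7.76, 7.79 and 7.73 in shTardbp, 8.62, 8.71 and 8.65 in shLuciferase and 8.30 to 8.44 in shGFP (-0.89, SE 0.064). Lsm3 of the Lsm ring was at 9.65 to 10.05 against 10.65 to 10.75 (-0.81, SE 0.106). Among 59 splicing regulators 9 were lower and 6 higher, close to the shares over all genes, and with the letter as a block 3 and 2. Rbm10, which acts on exon skipping, fell by 0.86 (SE 0.114). In the list of nuclear pore and transport genes 17 of 45 were lower and none higher, but 7 lower and 1 higher with the letter as a block. Nup85, a scaffold nucleoporin, was at 9.32 to 9.59 against 10.07 to 10.13 (-0.65, SE 0.0779).

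Lysosome and autophagy genes leaned upward. Of 40 measured 19 were higher and none lower (median 0.24), 11 of them also higher against shGFP, 4 particular to the luciferase control and 4 neither. Grn, progranulin, was at 11.30, 11.20, 11.14 and 11.10 in shTardbp, 10.61, 10.54 and 10.47 in shLuciferase and 10.33 to 10.69 in shGFP (0.64, SE 0.0891). The protease genes Ctsd (0.66, SE 0.0989) and Ctsb (0.60, SE 0.0761) and the membrane protein gene Lamp2 (0.43, SE 0.0927) rose against both controls. The 4 genes particular to luciferase were the autophagosome genes Gabarapl1 (0.60 against shLuciferase, 0.09 against shGFP) and Map1lc3b (0.51 and -0.01), the lysosomal membrane gene Tmem106b (0.47 and 0.10) and Hexa, a subunit of a lysosomal hexosaminidase (0.51 and -0.01). Against shGFP the same list held 13 higher and 5 lower members.

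In a list of transcripts that earlier work tied to TDP-43, 10 of 28 were higher and 4 lower, Tardbp among the latter, and 10 were called the same way against shGFP. With the letter as a block 9 were higher and 1 lower, and 5 were called against both controls. The microtubule protein gene Mapt was at 7.69, 8.12, 7.75 and 7.78 in shTardbp and at 6.95, 6.96 and 6.90 in shLuciferase (0.90, SE 0.0932). Madd, a regulator of Rab3, was at 9.44 to 9.55 against 8.54 to 8.72 (0.83, SE 0.0705). Unc13a, a vesicle priming factor measured by 1 probe set, was at 9.34 to 9.64 against 8.50 to 8.74 (0.86, SE 0.11), and its relative Unc13b fell by 0.73 (SE 0.0668) to a level not shown to be above background. These 4 genes were called the same way against shGFP. The particular members of the list were the ciliary gene Ahi1 (0.41 against shLuciferase, -0.03 against shGFP) and the channel-interacting gene Kcnip2 (0.32 and 0.08). Of 23 ALS-linked genes 8 were higher and 4 lower. With the letter as a block 9 were higher and 2 lower, and 6 and 2 when probe sets were combined by their median. Kif5a, a motor of axonal transport, was at 8.97 to 9.19 against 8.16 to 8.44 (0.76, SE 0.107), and the mitochondrial gene Chchd10 at 8.60 to 8.92 against 7.71 to 8.07 (0.77, SE 0.12). Anxa11, a membrane-binding annexin, fell from 5.56 to 5.71 in shLuciferase to 4.23 to 4.45, where it is not shown to be above background (-1.30, SE 0.0886).

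Interferon response genes were higher in 9 of 34 and lower in 3, and 15 of the 34 had a mean over the 7 arrays below 4.46. The higher members numbered 5 when probe sets were combined by their median and 6 with the replicate block, and the lower ones 1 without shLuciferase 4 or with the letter as a block. Apol9b rose most, from 6.23, 6.40 and 6.27 in shLuciferase to 7.65, 7.97, 7.99 and 7.96 in shTardbp (1.59, SE 0.131). Its level in shGFP was lower still, 4.66 to 5.24, so the rise against that control was 2.94. Irf9, a subunit of the factor that answers type I interferon, rose by 0.66 (SE 0.0873) against shLuciferase and 0.71 against shGFP, while its partner Stat2 was particular to luciferase (0.42 and 0.11). No member of the list was particular without shLuciferase 4, with the letter as a block or with the replicate block. The core letters of the interferon-stimulated response element, GAAA, any 2 bases and GAAA on either strand, stood in 5 of 11 promoters of the 9 higher genes (45.5%), beside 3.44% of all promoters. Apol9b has overlapping promoters that hold the same match, which was counted for each. The share among members that were not higher was not counted, so this share describes genes of the list and not their rise. The Apol9b promoter at chr15:77728922-77729071 (plus strand) is shown with those letters in capitals, here on the reverse strand. It is an example that holds a match. The promoters of Irf9, Stat2 and Oasl1, which also rose, hold none over a span of that length before the start.
Apol9b: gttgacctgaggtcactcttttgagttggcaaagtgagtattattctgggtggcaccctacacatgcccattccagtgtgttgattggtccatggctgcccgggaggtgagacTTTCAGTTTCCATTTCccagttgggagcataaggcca

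**Figure D2:**
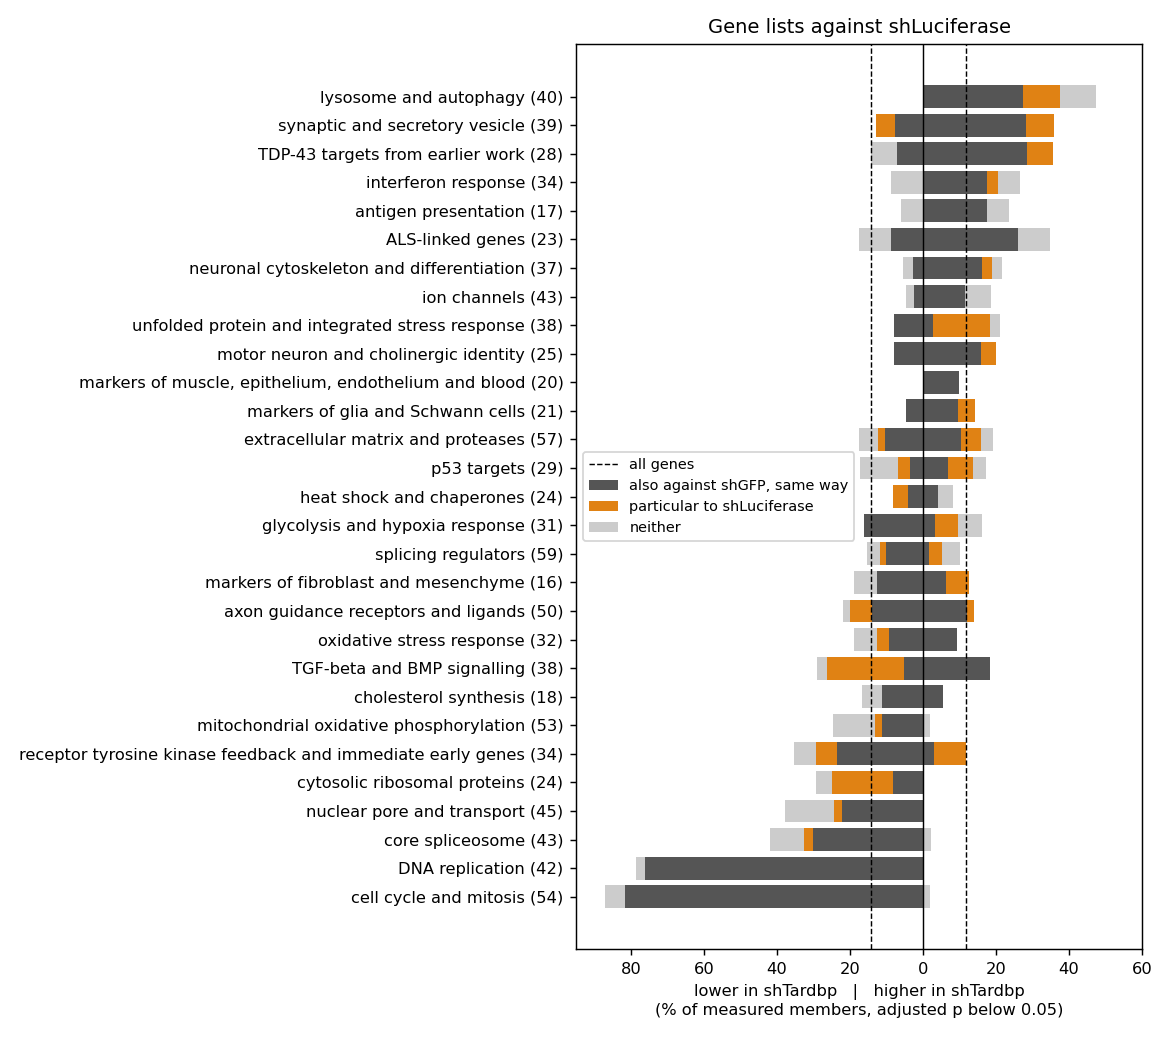
Share of the measured members (number in brackets) of each gene list that were called lower (left) or higher (right) in shTardbp against shLuciferase, in percent, divided by whether the gene was called the same way against shGFP, was particular to shLuciferase, or neither. Dashed lines mark the shares over all genes (14.3% lower, 11.8% higher); cell cycle and DNA replication stand far past them, and the stress response and TGF-beta lists hold the widest particular bands of these lists, on the higher and the lower side.

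The changes particular to the luciferase control were then separated. A gene was counted as particular when it passed against shLuciferase, did not pass the same way against shGFP, and shGFP minus shLuciferase itself passed in the direction that makes the luciferase change larger. The comparisons with the 2 controls share the shTardbp arrays, so their difference is the difference of the controls, and that was the quantity tested (1752 genes, 11.1%, passed between the controls). Of the 4120 called genes 616 were particular (3.9% of all genes), 322 higher (2.04%) and 294 lower (1.86%). Another 2699 (65.5%) were called the same way against shGFP, and 805 (19.5% of the called, 5.09% of all genes) met neither rule, so for them the data do not decide. The median absolute change of the particular genes was 0.440 against shLuciferase and 0.109 against shGFP, sizes that the rule itself fixes in part. Of the 616 genes 18 changed at least 2-fold and 77 passed the opposite way against shGFP. The arrays of shTardbp lay on the called side of shLuciferase 4 in 597 of the 616, which the rule again fixes in large part, as that array is among the controls. Without shLuciferase 4, 424 of the 616 met the rule again, and with the letter as a block 276. The whole count of particular genes was 557 without shLuciferase 4, 403 without shLuciferase 1 (187 lower) and 435 without shLuciferase 2 (184 lower).

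Nxph4, which encodes a ligand of the neurexins, was the largest particular rise and rests in part on 1 array. It was at 7.11, 8.65, 7.27 and 7.25 in shTardbp, 5.78, 5.42 and 5.47 in shLuciferase and 6.84 to 7.29 in shGFP (2.02, SE 0.284, against 0.53 for shGFP, adjusted p = 0.165). Without shTardbp 2 the rise was 1.66. Cnn2, an actin-binding calponin, was at 9.07, 8.94, 8.78 and 8.96 in shTardbp, 7.40, 7.70 and 7.04 in shLuciferase and 8.65 to 9.08 in shGFP (1.56, SE 0.138, against 0.04). Itpr2, a calcium release channel of the endoplasmic reticulum, was at 6.53 to 6.79, 5.38 to 5.49 and 6.46 to 6.81 (1.24, SE 0.0923, against 0.05), with 64 of its 65 probe sets higher. Gch1, the first enzyme of tetrahydrobiopterin synthesis, rose by 1.21 (SE 0.132) against shLuciferase and differed by 0.08 from shGFP. For Pmepa1, an inhibitor of TGF-beta signalling, the values were 1.20 (SE 0.0927) and 0.19, and for the adaptor Dok5 1.18 (SE 0.0806) and 0.13. In each of these genes the luciferase arrays lay below all 8 others, a separation that the rule by which they were picked favours.

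Hoxd10, a homeobox gene that sets position along the body and limb axes, was at 8.39, 8.57, 8.38 and 8.38 in shTardbp, 6.88, 6.70 and 6.89 in shLuciferase and 8.20 to 8.45 in shGFP (1.61, SE 0.0828, adjusted p = 2.52e-08, against 0.10 for shGFP). Its neighbours were picked after their values were seen. Hoxd9 rose by 0.89 (SE 0.0812) and Hoxd11 by 0.47 (SE 0.0807) against shLuciferase, beside 0.17 and 0.02 against shGFP. Hoxd13 was at 7.01 to 7.14 in shTardbp, 6.14 to 6.17 in shLuciferase and 7.51 to 8.03 in shGFP, higher than one control (0.95, SE 0.105) and lower than the other (-0.71, adjusted p = 1e-04).

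Phlda2, an imprinted gene that restrains growth of the placenta, was the largest particular fall. It was at 6.34, 6.70, 6.18 and 6.40 in shTardbp, 8.39, 8.33 and 8.90 in shLuciferase and 6.35 to 6.70 in shGFP (-2.14, SE 0.144, adjusted p = 3.39e-07, against -0.12). The shTardbp and shGFP arrays overlapped and the luciferase arrays stood apart above both. The growth factor receptor gene Fgfr2 was at 5.50 to 5.70, 6.83 to 6.88 and 5.21 to 5.43 in the same order. It fell against shLuciferase (-1.28, SE 0.0753) and rose against shGFP (0.26, adjusted p = 0.0124). Nuak1, a kinase related to AMPK, was at 8.23 to 8.38, 9.27 to 9.78 and 8.01 to 8.67 (-1.29, SE 0.15, against -0.14). The membrane estrogen receptor gene Gper (now Gper1; -1.21, SE 0.118), the cyclic GMP phosphodiesterase gene Pde9a (-1.19, SE 0.13) and the G protein subunit gene Gng8 (-0.99, SE 0.158) had values of 0.09, -0.23 and -0.13 against shGFP, none past the threshold. The transglutaminase gene Tgm5 fell from 5.70 to 5.88 to a level not shown to be above background (-1.47, SE 0.0794), and Otop1, measured by 1 probe set, was near background in both groups. Chosen after their values were seen, the nicotinic receptor subunit genes Chrna3 and Chrna7 changed by -0.85 (SE 0.0941) and -0.81 (SE 0.0821) against shLuciferase, beside -0.11 and -0.16 against shGFP.

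**Figure D3:**
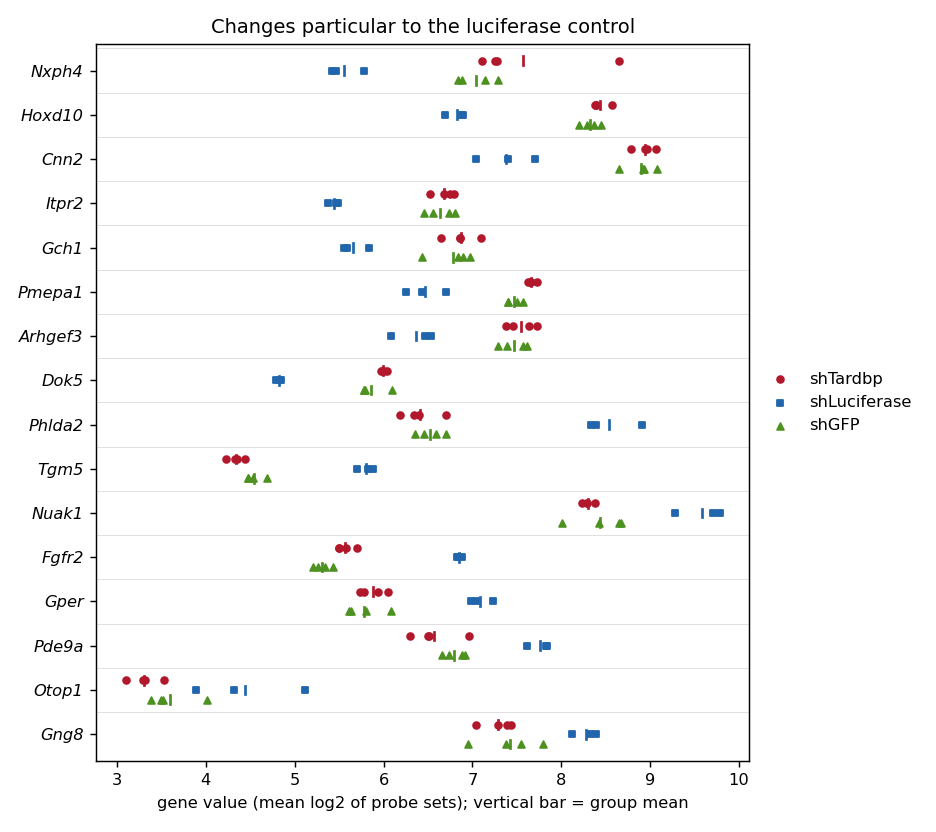
Gene values (mean log2 signal of the probe sets) of the 8 largest rises and 8 largest falls that were particular to shLuciferase, 1 point per array with a vertical bar at each group's mean. In 15 of the 16 genes the shLuciferase arrays do not overlap the other 8 arrays, a separation that the rule by which they were picked favours. In Otop1, which is near background, shLuciferase 1 at 3.89 lies below shGFP 3 at 4.01. The shTardbp 2 array of Nxph4 lies at 8.65, away from the other 3.

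Synaptic and secretory vesicle genes leaned upward, and some of the rises were particular to the luciferase control. Of 39 measured 14 were higher and 5 lower, 14 of them called the same way against shGFP and 5 particular (9 and 3 with the letter as a block). Chgb, a chromogranin of the granule core, was at 11.02, 11.08, 11.17 and 10.99 in shTardbp, 9.88, 9.93 and 10.01 in shLuciferase and 10.93 to 11.33 in shGFP (1.13, SE 0.0919, against -0.11). Scg2, a secretogranin, showed 0.95 (SE 0.0953) and -0.21, and Rab3c, a GTPase of secretory vesicles, 0.71 (SE 0.101) and 0.03. The other particular members were the fusion clamp gene Cplx1 (-0.41, SE 0.118, and 0.15) and the active zone gene Rims1 (-0.31, SE 0.0657, and -0.06). Chga and Scg5, of the same granules, rose against each control, by 0.82 (SE 0.112) and 0.93 (SE 0.0974) against shLuciferase and by 0.48 and 0.53 against shGFP. The synaptic vesicle genes Sv2a (0.97, SE 0.0806, and 1.15) and Syp (0.80, SE 0.0983, and 0.58) did so as well.

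The stress response list read differently with the 2 controls, mostly lower against shGFP and with no shift of its median against shLuciferase. Among 38 genes of the unfolded protein and integrated stress responses 8 were higher and 3 lower against shLuciferase (median 0.00297), where 1 was higher and 20 lower against shGFP (median -0.22; over all genes 12.4% higher and 15.5% lower). Between the controls 20 of the 38 were higher in shGFP than in shLuciferase and none lower, beside 6.26% and 4.82% of all genes. The 6 particular members were all higher: the cystine transporter gene Slc7a11 (0.70, SE 0.116), the transcription factor gene Atf5 (0.56, SE 0.0893), the stress protein gene Nupr1 (0.54, SE 0.0836), the sensor Ern1 (0.46, SE 0.0754), the degradation factor gene Sel1l (0.33, SE 0.0735) and Ddit3, the transcription factor CHOP (0.32, SE 0.112). Nupr1 was at 9.91 to 10.09 in shTardbp, 9.38 to 9.60 in shLuciferase and 10.24 to 10.50 in shGFP, and so was called lower against shGFP (-0.32). Atf3, a factor induced by stress, fell against both, from 7.77 to 8.11 in shLuciferase and 8.67 to 8.93 in shGFP to 6.44 to 6.68 (-1.38, SE 0.0945, and -2.21). Without shLuciferase 4 the list held 5 higher and 4 lower members and 4 particular ones, and with the letter as a block 5, 2 and 4. When probe sets were combined by their median in place of their mean it held 4, 2 and 2.

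Gadd45a, a growth arrest gene, was at 6.89 to 7.11 in shTardbp, 6.57 to 6.64 in shLuciferase and 8.21 to 8.42 in shGFP, with a change of 0.41 (SE 0.0765) against the former control and -1.25 against the latter. Its call against shLuciferase was lost with the median of the probe sets (adjusted p = 0.146). Chosen after their values were seen, the activin subunit gene Inhbe rose by 0.94 (SE 0.0882) against shLuciferase and differed by -0.07 from shGFP, and the cytokine gene Gdf15 showed 0.77 (SE 0.172) and -0.40, the latter not past the threshold. In the glycolysis and hypoxia list 5 of 31 genes were higher and 5 lower against shLuciferase, beside 1 higher and 13 lower against shGFP. Between the controls 11 were higher and 1 lower in shGFP (median 0.40). Ddit4, an inhibitor of mTOR induced by hypoxia, was particular (0.78, SE 0.105, and -0.09), as was Vegfa (0.30, SE 0.0843, and -0.19). Egln3, an oxygen-sensing hydroxylase, fell against both (-1.24, SE 0.236, and -1.97), though shTardbp 2 at 9.76 lay near the luciferase arrays (10.01 to 10.23) and the other shTardbp arrays at 8.47 to 8.60. Without shLuciferase 4 the hypoxia list held 2 higher and 5 lower members.

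Genes of TGF-beta and BMP signalling moved in both directions. Of 38 measured 7 were higher and 11 lower against shLuciferase (median -0.017), and 13 were higher and 4 lower against shGFP (median 0.083). The list held 8 particular members, all lower, and between the controls 2 were higher and 11 lower in shGFP. Id2, a BMP target that blocks basic helix-loop-helix factors, was at 10.20, 10.07, 9.96 and 9.88 in shTardbp, 11.24, 11.04 and 10.70 in shLuciferase and 9.61 to 9.97 in shGFP (-0.97, SE 0.124, and 0.19). Id3 and the receptor-regulated Smad9 passed in opposite directions, with -0.65 (SE 0.151) and -0.76 (SE 0.092) against shLuciferase and 0.52 and 0.32 against shGFP. So did the inhibitory Smad7 (-0.28, SE 0.0838, and 0.41) and Smad6 (-0.25, SE 0.0853, and 0.29). The co-receptor gene Tgfbr3 (-0.57, SE 0.0773) and the ligand genes Tgfb1 (-0.53, SE 0.168) and Tgfb3 (-0.47, SE 0.0788) completed the particular members, with -0.15, 0.26 and -0.12 against shGFP. Bambi, Smad3 (0.51, SE 0.0902, and 0.71) and Smad4 (0.31, SE 0.075, and 0.26) rose against each control, and the activin antagonist Fst fell against each (-1.19, SE 0.0822, and -0.34). With the letter as a block 6 members were lower and 4 particular, and 6 were lower when probe sets were combined by their median.

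**Figure D4:**
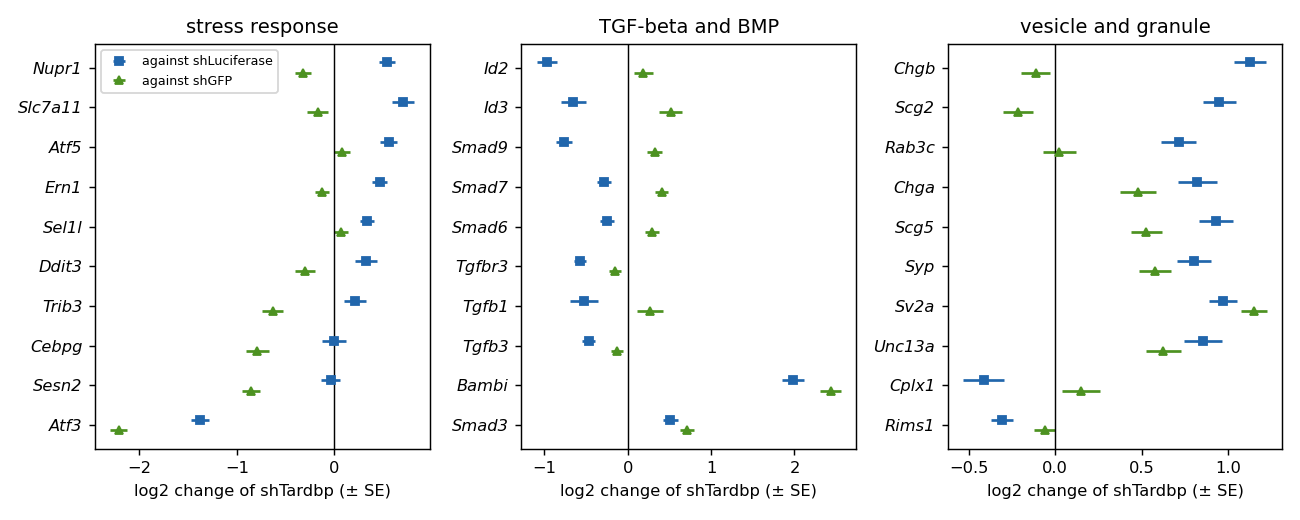
Log2 change of shTardbp with its SE against shLuciferase (squares) and against shGFP (triangles) for 10 genes each of the stress response, TGF-beta and BMP, and vesicle and granule groups, chosen after their values were seen. Nupr1 and Ddit3 lie right of 0 against shLuciferase and left of it against shGFP, Id3 and Smad9 the other way, Chgb and Scg2 are called against shLuciferase and not against shGFP, and Bambi, Sv2a and Atf3 lie on the same side with both controls.

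Markers of neuronal identity gave a mixed reading. The neuronal markers Tubb3, Mtap2 (now Map2), Nefl, Nefm, Nefh, Stmn2, Snap25 and Elavl3 were not called against shLuciferase. Of the motor neuron markers, Chat, Slc5a7, Mnx1 and Lhx3 were not called either, the first 3 at levels not shown to be above background. The remaining motor neuron markers, Isl2, Slc18a3 and Isl1, were higher. Isl2 rose by 0.25 (SE 0.0869, adjusted p = 0.0487 in limma) and was called higher against shGFP too. In a list of 37 genes of neuronal cytoskeleton and differentiation 8 were higher and 2 lower. When probe sets were combined by their median, 3 were higher and 1 lower. Of 25 motor neuron and cholinergic genes 5 were higher and 2 lower. Ache, acetylcholinesterase, was at 8.50, 9.33, 8.55 and 8.49 in shTardbp and at 7.72, 7.86 and 7.25 in shLuciferase (1.11, SE 0.189), and Slc18a3 rose by 0.40 (SE 0.112). The GDNF co-receptor gene Gfra1 fell by 1.56 on the log2 scale (SE 0.0774). Isl1, a LIM homeodomain factor of motor neurons, depended on the control: it was at 7.77, 8.39, 8.22 and 8.21 in shTardbp, 7.39 to 7.74 in shLuciferase and 8.57 to 8.74 in shGFP, higher than one (0.60, SE 0.127) and lower than the other (-0.51, adjusted p = 0.00429). Of 34 immediate early genes and feedback genes of receptor tyrosine kinases 4 were higher and 12 lower, 5 of them particular. With the letter as a block 2 were higher and 7 lower, and 3 and 6 when probe sets were combined by their median. Fos (0.67, SE 0.0857, and 0.08) was particular and higher, while Nr4a1 fell against both (-1.08, SE 0.0908, and -0.82). The feedback phosphatase gene Dusp6 was particular and higher as well (0.73, SE 0.126, and -0.17).

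Markers of other cells were low on average, but most were not below 4.46 in shLuciferase. Below it were 6 of 21 glia and Schwann cell markers, 4 of 16 fibroblast markers and 6 of 20 muscle, epithelial, endothelial and blood markers. Some stood high in shLuciferase, among them Vim at 11.69, Pmp22 at 11.47 and Snai2 at 10.35. The mean level over 21 glia and Schwann cell markers was 5.24 to 5.40 in shTardbp arrays and 5.25 to 5.39 in shLuciferase arrays, over 16 fibroblast markers 5.63 to 5.75 and 5.56 to 5.75, and over 20 muscle, epithelial, endothelial and blood markers 4.93 to 5.06 and 4.88 to 5.05. The ranges of the groups overlapped for each of the 3 lists. Of the glia and Schwann cell markers 3 were higher, Erbb3 (0.54), Slc1a2 (0.32) and Mbp (0.26), and 1 lower, Pdgfra (-1.14, SE 0.0946). Of the fibroblast markers 2 were higher, S100a4 (0.96, SE 0.174) and Pdgfrb (0.79, SE 0.091, with 0.04 against shGFP), and 3 lower, Dcn (-1.04, SE 0.107), Snai2 (-0.35) and Vim (-0.27). Of the last list 2 were higher, Vwf (0.72, SE 0.0665) and Pecam1 (0.50), and none lower. Their part in the results was not tested.

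Some changes lay in runs of neighbouring genes. A running median over 41 neighbours in RefSeq order passed 0.2 in size in 8 stretches of at least 10 genes, 2 higher and 6 lower, with 230 of 15718 placed genes (1.46%). They held 137 called genes (3.33% of those called) and 18 particular genes (2.92%). The stretches were picked by these same changes, so these shares and the directions within the stretches follow in large part from that rule. The longest stretch ran from Cxxc5 to Yipf5 over 84 genes, 57 of them higher and 1 lower, with a median change of 0.44 against shLuciferase and 0.32 against shGFP. Against shLuciferase 4 alone that median was 0.45. The lower stretches included Sec14l4 to Zmiz2 (44 genes, median -0.27, 23 lower) and Aco1 to Pigo (32 genes, median -0.30, 20 lower). In the latter the median against shGFP was -0.11 and shGFP minus shLuciferase -0.19, with 5 particular genes. Outside all stretches 1795 genes were higher and 2188 lower.

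**Figure D5:**
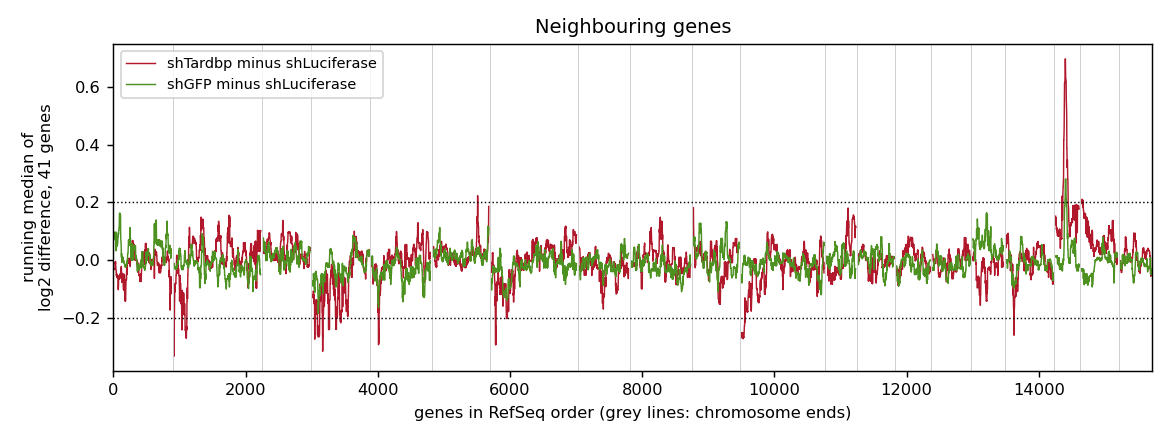
Running median over 41 neighbouring genes of the log2 difference, in RefSeq gene order along the chromosomes (grey lines mark chromosome ends), for shTardbp minus shLuciferase and shGFP minus shLuciferase, with dotted lines at 0.2 and -0.2. The tall peak is the stretch from Cxxc5 to Yipf5, where the control groups also differ over 22 genes.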

How the data were processed

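RNA was measured on Affymetrix whole-transcript arrays. The authors deposited log2 signals for 194293 probe sets, made with Partek and RMA per the submitters' processing notes. No source used here states a version, the normalization settings or the build. The platform annotation gave 179496 probe sets 1 gene symbol, 1328 several and 13469 none, and only the first kind was used (median 9 per gene, 807 genes with 1). Of the symbols, 13727 were current in the RefSeq gene table of GRCm38.p6 and 2039 were found there as older names. Using limma 3.58.1 (lmFit, eBayes; R 4.3.3), 1 model with 3 groups was fitted to all 11 arrays and 15803 genes, with no filter, no replicate block and Benjamini-Hochberg adjustment over all genes (threshold 0.05). SE is the standard error of that model. The number of arrays limits the precision. The fit was tested on simulated data. It found 48 of 50 rises and 50 of 50 falls of 1 on the log2 scale. Of changes of 0.5 it found 32 of 50 rises and 41 of 50 falls, so many of that size were missed in the simulation. Far fewer genes were changed there than were called in the data, which makes the adjusted threshold stricter. These shares therefore need not hold for the data. Among 15603 genes without a change 5 passed. Medians, overlaps, motif counts and neighbour medians were computed in Python 3.11.15.

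The members and gene lists were chosen with earlier results of these data known. Named genes were Tardbp, the 10 largest rises and 10 largest falls without overlap of the arrays, the 8 largest particular rises and falls, the ends of neighbour stretches, and the 3 called members of smallest adjusted p in each list, or fewer. Unnamed clones were left out of the rises and falls, and 1 particular rise is not reported here. Genes outside this rule were picked with their values known. Alternatives were the array code letter or replicate number as a block, array weights, the 7 arrays alone, quantile normalization or centring again, a trended robust fit, the median of probe sets, genes above the median level, each array left out, and other neighbour windows.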

Additional observations from a re-analysis of the deposited data

Results flagged for a closer look

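In 250 groups of 4 arrays of named genes, 14 held 1 array farther from the rest than Dixon's 95% limit allows, where chance gives about 5% of groups. Of these, 6 concern shTardbp 2, which lay above the other shTardbp arrays. Its Nxph4 was at 8.65 (the others 7.11 to 7.27), Ache at 9.33 (8.49 to 8.55), Eno2 at 9.88 (9.10 to 9.18), Pld4 at 8.17 (7.75 to 7.80), Hoxd10 at 8.57 (8.38 to 8.39) and S100a4 at 7.60 (7.07 to 7.14). In shTardbp 1, Apol9b was at 7.65 (7.96 to 7.99) and Fst at 5.25 (5.31 and 5.31), both below the rest. The shGFP 2 array was above the rest for Dok5 at 6.09 (5.78 to 5.79), Cox6b1 at 10.31 (9.73 to 9.77) and S100a4 at 6.85 (6.20 to 6.30). In shGFP 5, Rbm10 was at 8.22 (8.53 to 8.57) and Zmiz2 at 9.76 (9.88 and 9.88), and in shGFP 1 Hsd17b7 was at 9.17 (9.50 to 9.53), all below the rest. The luciferase group has 3 arrays and was not examined this way.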

How the results depend on the processing

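Over the other settings, 2876 to 5427 genes passed against shLuciferase, the lowest count with the median of the probe sets and the highest with array weights. The genes particular to luciferase (616, of them 322 higher and 294 lower) were the least steady of the counts. They numbered 1029 with array weights (491 higher and 538 lower), 348 with probe set medians (199 and 149) and 391 with the replicate block (161 lower). With the code letter as a block 185 were lower. Genes called against both controls numbered 1418 with the letter block and 1776 with probe set medians, and Tardbp was at -0.32 with the letter block (adjusted p = 0.0994, the highest of its alternatives, which began at 0.000925). With each array left out in turn the ranges were 3361 to 4220 genes called, 1502 to 1917 higher and 1805 to 2305 lower. They were 403 to 643 particular (216 to 312 higher, 184 to 347 lower), 2274 to 2654 against both controls and -0.45 to -0.36 for Tardbp. The called and the particular counts were lowest without shLuciferase 1. For list genes the range was 318 to 387, for lower cell cycle genes 45 to 48 and for lower replication genes 28 to 34. The neighbour stretches held 378 genes with a window of 21 genes. The sign turned for Obox5 (-0.23 with the letter block, and -0.052 to 0.29 with each array left out, negative without shLuciferase 1) and Sec14l4 (0.010 with array weights, 0.027 with the replicate block, and -0.046 to 0.056 with each array left out, positive without shLuciferase 4, shTardbp 3 or shTardbp 4). The cause was not tested. Same-numbered shTardbp and shLuciferase arrays correlated in their deviations at 0.07, 0.12 and -0.04, so the numbers were not taken to pair them. With the replicate block 3962 genes passed. Signal over background limits the folds of genes below 4.46.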
